A study of Mus musculus with 27 samples.

Results

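Bone marrow P2 and bone marrow P3 cells, the CD105- CD200- and the CD105+ subpopulations of Prx1-labelled marrow cells, were compared across all genes with 3 libraries each, 6 of the 27 libraries of the study. The 6 libraries were taken by their labels alone, and every gene of the deposited table was placed on the scale log2(normalized count + 1). The study sorted mouse hindlimb cells of bone marrow, periosteum and muscle into 3 subpopulations each (P1, P2 and P3) and sequenced their RNA to ask how the subpopulations differ. The animals of both groups were Prx1-CreER/Ai14/Rag1 mice, male and female, aged 8 to 12 weeks, which received 2 tamoxifen injections 48 h apart and were harvested 3 days after tamoxifen. In these mice a tamoxifen-activated Cre under the Prx1 promoter permanently switches on tdTomato, a red fluorescent protein, in cells that express Prx1 and in their progeny, so a red cell need not express Prx1 at harvest. All animals carried the Rag1 mutation, which stops B and T cells from assembling antigen receptor genes. Marrow was flushed from femur and tibia, and living tdTomato+ cells without CD45, the surface protein of leukocytes, were sorted into P2 (CD105- CD200-) and P3 (CD105+, with or without CD200). The labels do not tie a library to an animal, so the p-values below measure the spread between these libraries.

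The genes behind the gate were read first, as a description, since the sort used their proteins. Eng, which encodes CD105, had normalized counts of 97.4, 13.1 and 173.4 in P2 and 1740, 773.9 and 1072 in P3. Cd200 had 72.6, 21.1 and 56.3 in P2 and 905.4, 472.6 and 451.2 in P3. Both genes followed their labels in all 6 libraries, although the P2 gate did not bring them to 0. Ptprc, which encodes CD45, was present in both groups, with 312.1, 690.2 and 828.7 in P2 and 308, 66.5 and 321.5 in P3. Prrx1, the gene of Prx1, had 90.8, 69 and 170.3 in P2 and 724.9, 132.3 and 147.5 in P3, and the groups overlapped (log2 fold change -1.23, SE 0.72, adjusted p = 0.198, and called at the same total per library, at -2.33 with adjusted p = 0.0351). The table entry named TRANSGENES, whose sequence is not given in the sources used here, had 1296, 1234 and 1181 in P2 and 7779, 4005 and 4187 in P3, higher in every P3 library (log2 fold change -2.04, SE 0.34, adjusted p = 0.00237). Here and below a log2 fold change is P2 minus P3, so a positive value is higher in P2.

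Red blood cells form in marrow from progenitors that divide a few last times, fill with haemoglobin, condense and expel the nucleus, and then clear their ribosomes and organelles. CD105 is known on endothelial cells, on stromal cells and on early erythroid cells, from which it is lost as they mature. The marrow stroma that carries this process contains reticular cells that secrete Cxcl12 and Kitl, bone-forming cells and sinusoidal endothelium.

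A differentially expressed gene (DEG) was one that passed an adjusted p of 0.05 in limma and moved by more than 1.5 on the log2 scale, up or down. Of the 15368 genes with at least 10 normalized counts in at least 3 of the 6 libraries, 4903 were DEGs (31.9%), of which 3174 were higher in P2 (20.7%) and 1729 higher in P3 (11.3%). The libraries of the groups did not overlap for 7765 genes (50.5%), with 4559 higher in P2 (29.7%) and 3206 higher in P3 (20.9%). Summed normalized counts were 17678663 to 26232142 in P2 and 8639660 to 10311876 in P3, with 18543 to 21676 and 16802 to 17448 genes above 0. The authors had normalized the table, so the sums differ by what that step left and the number of reads behind a value is unknown. The direction varied with the level, as the share of DEGs higher in P2 was 90.8% at a mean below 50, 68.9% at 50 to 200, 35.4% at 200 to 1000, 53.2% at 1000 to 5000 and 82.4% from 5000. When every library was set to the same total, the median log2 fold change over all genes moved from 0.20 to -0.88 and the DEGs split into 1463 higher in P2 and 4600 higher in P3, and the same scaling on totals without globins gave 2465 and 2199. Without P3 replicate 3 the DEGs numbered 2207 higher in P2 and 992 higher in P3. P3 replicate 1 stood apart within its group, with a reticular stroma sum of 195004 against 52949 and 57002 in the other P3 libraries.

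The 4 adult globin genes, which encode the chains of haemoglobin, were the most abundant transcripts of P2 and were 4 of 5 tested members of the globin list called higher there, as they also were at the same total. Globins took 45.28% ± 1.76 (SD, n = 3) of all normalized counts in P2 and 3.706% ± 0.66 (SD, n = 3) in P3. The difference of 41.58 percentage points had an exact two-sided permutation p of 0.1, the smallest that 3 against 3 libraries allow. In bulk samples, fewer cells of a type and less RNA per cell cannot be told apart. Hbb-bs had 2818895, 4163507 and 2647659 normalized counts in P2 and 76515, 107572 and 124176 in P3 (log2 fold change 4.96, SE 1.67, adjusted p = 0.0377). Hba-a1 had 1741933, 2724738 and 1647645 in P2 and 70779, 105551 and 125663 in P3 (log2 fold change 4.34, SE 1.5, adjusted p = 0.0413). No P3 library came near a P2 library for either gene. Hba-a1 and Hba-a2, and likewise Hbb-bs and Hbb-bt, are near-identical copies, so how reads were shared within each pair is uncertain. Only 1 of the 4 globins stayed called under quantile normalization and under median-of-ratios scaling, and 0 to 4 did when a library was left out, with none without P2 replicate 1, P3 replicate 2 or P3 replicate 3. The embryonic globin Hba-x was low in both groups, at 0, 3.41 and 17.8 against 20.1, 25.1 and 1.14.

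Haem synthesis genes rose with the globins. Of 12 enzymes and carriers of the pathway, all tested, 8 were higher in P2 and 0 higher in P3, against 20.7% and 11.3% of all genes. The median log2 fold change was 1.90 (0.20 over all genes), although only 2 remained called at the same total per library, where the median was 0.79. Alas2, the erythroid enzyme that starts the pathway, had 85157, 131137 and 79395 in P2 and 3614, 4137 and 6384 in P3 (log2 fold change 4.39, SE 0.47, adjusted p = 0.000511). Fech, which inserts iron into the finished ring, had 20976, 36382 and 18463 in P2 and 3044, 3626 and 5922 in P3 (log2 fold change 2.58, SE 0.43, adjusted p = 0.00223). The libraries separated completely at both ends of the pathway. Tmem14c, a mitochondrial porphyrin carrier, did not follow (log2 fold change -0.01, SE 0.43, adjusted p = 0.984). Among 12 iron handling genes 2 were higher in P2 and 1 higher in P3 (20.7% and 11.3% of all genes), and the list's median of 0.32 turned to -0.78 at the same total and to -0.34 under quantile normalization. Those higher in P2 were Slc25a37, the mitochondrial iron importer, with 30716, 48033 and 25902 against 1827, 3324 and 3196 (log2 fold change 3.65, SE 0.42, adjusted p = 0.000537), and Ncoa4, the receptor that sends ferritin for breakdown (log2 fold change 3.25, SE 0.34, adjusted p = 0.000502). Aco1, the iron-sensing regulator of mRNAs for iron proteins, was the member higher in P3 (log2 fold change -2.28, SE 0.67, adjusted p = 0.0227). Its call was lost without P2 replicate 1 or 2 or P3 replicate 1 or 3 (adjusted p = 0.0549, 0.0546, 0.057 and 0.0859).

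Of 19 red cell membrane genes, all tested, 16 were higher in P2 and 0 in P3, against 20.7% and 11.3% of all genes. Their median log2 fold change was 2.19, and 6 were called with a median of 1.09 at the same total. Slc4a1, the anion exchanger band 3, had 113673, 188988 and 90932 in P2 and 12047, 14894 and 24577 in P3 (log2 fold change 2.93, SE 0.61, adjusted p = 0.00538). The lowest P2 library lay above the highest P3 library. Tmod1, which caps the short actin filaments of the membrane skeleton, had the largest change of the list, with 5874, 7527 and 4780 against 329.4, 539 and 686 (log2 fold change 3.58, SE 0.36, adjusted p = 0.000439).

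Genes of late erythroid maturation changed further than the haem and membrane genes did by their medians, which are given as a description. Of 18 tested of 19 members, 16 were higher in P2 and 1 higher in P3, against 20.7% and 11.3% of all genes. The median log2 fold change was 2.73, and at the same total 10 and 1 were called with a median of 1.63. Bpgm, which makes the 2,3-bisphosphoglycerate that lowers the oxygen affinity of haemoglobin, had 17781, 22899 and 22143 in P2 and 487.6, 397.4 and 588.8 in P3 (log2 fold change 5.42, SE 0.31, adjusted p = 1.58e-05). Tent5c, a poly(A) polymerase listed in the table as Fam46c, had 12630, 21551 and 15033 against 477.6, 391.8 and 548.7 (log2 fold change 5.09, SE 0.33, adjusted p = 2.05e-05). Every P2 library lay far above every P3 library for both. Ube2o, the ubiquitin ligase that clears ribosomes from reticulocytes, had 4082, 7953 and 4436 in P2 and 171.9, 431.4 and 270.4 in P3 (log2 fold change 4.26, SE 0.41, adjusted p = 0.000384). Ypel4, Trim58 and Xpo7, of which the last 2 act in nuclear condensation or expulsion, rose by 4.59 (SE 0.47), 3.83 (SE 0.5) and 3.11 (SE 0.35) on the log2 scale. Car1, the carbonic anhydrase that appears early in erythroid cells, went the other way, with 4946, 6389 and 2926 in P2 and 9931, 29523 and 26360 in P3 (log2 fold change -2.13, SE 0.5, adjusted p = 0.00857). Car2, another red cell carbonic anhydrase, was not called (log2 fold change 1.30, SE 0.81, adjusted p = 0.22). Slfn14, an endoribonuclease that cleaves ribosomes and was found in reticulocytes, stood outside the lists and was among the 10 genes with the largest change higher in P2, with 5175, 9885 and 5384 against 30.8, 84.6 and 37.7 (log2 fold change 7.11, SE 0.45, adjusted p = 2.05e-05).

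The erythroid regulators are transcription factors, the erythropoietin receptor and its kinase. Of 14, all tested, 4 were higher in P2 and 2 higher in P3, near the shares of all genes (20.7% and 11.3%). Their median of 0.77 turned to -0.33 at the same total, where 1 and 3 were called. Gata1, the master factor of the lineage, had 5344, 6560 and 3734 in P2 and 2022, 4290 and 4644 in P3 (log2 fold change 0.57, SE 0.40, adjusted p = 0.285). Klf1, which switches on adult beta-globin, had 12506, 10178 and 4844 in P2 and 3065, 7831 and 8827 in P3 (log2 fold change 0.51, SE 0.5, adjusted p = 0.437). For these factors the groups overlapped, and the sign turned at the same total, to -0.54 for Gata1 and -0.59 for Klf1. The members higher in P2 were Tal1, a partner of Gata1, with 2680, 3548 and 2055 against 631.9, 595.1 and 616.7 (log2 fold change 2.13, SE 0.32, adjusted p = 0.00158), Nfe2, Klf3 and Sox6 (log2 fold changes 2.48, 2.63 and 2.20, SE 0.40, 0.36 and 0.44). Those higher in P3 were Stat5a, which carries the signal of the erythropoietin receptor, with 131.2, 80.2 and 217.4 in P2 and 687.1, 634.1 and 1138 in P3 (log2 fold change -2.58, SE 0.48, adjusted p = 0.00322), and Bcl11a, the repressor of embryonic globins, whose groups overlapped by a narrow margin at 161, 237.5 and 491.6 against 482.4, 1602 and 1471 (log2 fold change -1.97, SE 0.55, adjusted p = 0.0176). The call of Bcl11a was lost without P2 replicate 1 or 2 or P3 replicate 2 or 3 (adjusted p = 0.0674, 0.0515, 0.0741 and 0.0749). Kit, the receptor of early erythroid progenitors, had 63.7, 111.4 and 188.8 in P2 and 229.5, 302.2 and 434.7 in P3, without overlap but past the threshold of neither size nor test (log2 fold change -1.49, SE 0.56, adjusted p = 0.0572). It was called without P2 replicate 3 and under 3 of the 4 other scalings (adjusted p = 0.0044 to 0.0387). Of the other 13 tested members of the blood stem and progenitor list, 1 was called, Flt3, at 98.2, 52.3 and 217.2 against 7.01, 0.94 and 24 (log2 fold change 3.84, SE 1.12, adjusted p = 0.0215). That call was lost without P2 replicate 1, P2 replicate 3 or P3 replicate 2 (adjusted p = 0.0593, 0.0751 and 0.0706) and at the same total (0.0818). The list's median of 0.39 turned to -0.70 at the same total.

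**Figure D1:**
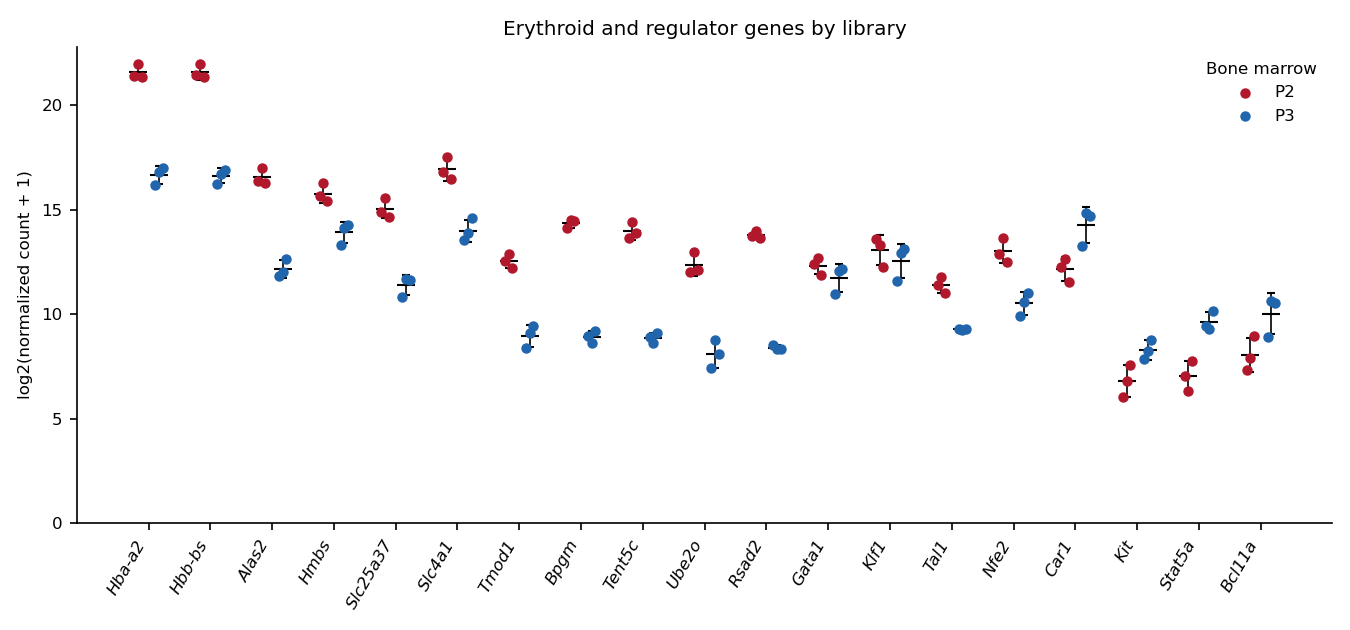
Each point is 1 library (red, P2; blue, P3) at log2(normalized count + 1), and the bars are the mean ± SD of the 3 libraries. From Hba-a2 to Rsad2 the P2 libraries lie above every P3 library, Gata1 and Klf1 overlap, and Car1, Kit and Stat5a lie lower in P2.

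Promoter sequences of genes that moved together, or in the case of Klf3 of a regulator that moved with them, are shown to give the letters around binding motifs of the erythroid factors. They are the 250 bases before the start of the gene, from RefSeq on GRCm38.p6, 5′ to 3′ on the strand of the gene. Capitals mark AGATAA, the motif of GATA factors, or CCACCC, that of Klf factors, each on either strand, so that TTATCT and GGGTGG are their reverse complements. Alas2 lies at chrX:150547167-150547416 on the plus strand, Epb42 (erythrocyte protein 4.2, Epb4.2 in the table) at chr2:121036878-121037127 on the minus strand, Tmod1 at chr4:46038972-46039221 on the plus strand and Klf3 at chr5:64803271-64803520 on the plus strand.
Alas2: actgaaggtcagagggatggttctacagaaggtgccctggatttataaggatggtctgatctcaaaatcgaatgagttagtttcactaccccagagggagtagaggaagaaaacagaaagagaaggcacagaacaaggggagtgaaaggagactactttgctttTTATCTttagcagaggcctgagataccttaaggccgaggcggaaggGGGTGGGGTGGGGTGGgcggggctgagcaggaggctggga
Epb42: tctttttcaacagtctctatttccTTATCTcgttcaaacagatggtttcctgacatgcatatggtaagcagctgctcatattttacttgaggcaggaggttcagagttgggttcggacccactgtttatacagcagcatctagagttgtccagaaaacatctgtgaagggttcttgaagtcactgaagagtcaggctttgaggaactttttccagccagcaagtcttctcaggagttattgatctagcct
Tmod1: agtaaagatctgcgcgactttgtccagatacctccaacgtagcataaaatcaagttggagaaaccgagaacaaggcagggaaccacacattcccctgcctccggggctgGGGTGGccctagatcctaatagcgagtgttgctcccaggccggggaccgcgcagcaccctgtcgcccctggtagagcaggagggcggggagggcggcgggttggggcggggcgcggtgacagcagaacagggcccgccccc
Klf3: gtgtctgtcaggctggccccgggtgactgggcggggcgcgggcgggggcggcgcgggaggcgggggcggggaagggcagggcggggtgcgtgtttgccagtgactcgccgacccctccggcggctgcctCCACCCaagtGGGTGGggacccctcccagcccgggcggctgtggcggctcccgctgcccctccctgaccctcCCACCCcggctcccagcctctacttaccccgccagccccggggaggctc
Alas2 held 1 GATA and 3 CACCC motifs in a run just before its start, Epb42 held 1 GATA motif, Tmod1 held 1 CACCC motif and Klf3 held 3. Over the lists, CCACCC was found in 5 of 7 matched globin promoters (71.4%), 8 of 13 red cell membrane promoters (61.5%), 5 of 13 late erythroid promoters (38.5%) and 3 of 10 haem synthesis promoters (30.0%), against 27.7% of all 27025 promoters. It was found also in 6 of 11 promoters of reticular stroma genes (54.5%), which were higher in P3. AGATAA was found in 2 of the 7 globin, 4 of the 13 membrane, 1 of the 13 late erythroid and 1 of the 10 haem synthesis promoters, against 10.3% of all. A match is a run of letters and not a measured binding site.

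Of 43 G1/S genes, which copy DNA, 0 were higher in P2 and 1 higher in P3 (median -0.22, and 0 and 16 called at the same total). Of 54 G2/M genes, which build and run the mitotic spindle, 12 were higher in P2 and 0 in P3, near the 20.7% of all genes called higher in P2, with a median of 1.19. The count depended on the scaling, since at the same total 0 and 1 were called with a median of 0.09, and at the same total without globins 3 and 0 were called with a median of 0.91. Without P2 replicate 2 it was 7 genes and without P2 replicate 3 it was 21. Cenpf, a kinetochore protein, had 8732, 7008 and 5409 in P2 and 1134, 1263 and 1393 in P3 (log2 fold change 2.46, SE 0.32, adjusted p = 0.000847). Mki67, the Ki-67 antigen of dividing cells, had 28231, 22863 and 16912 against 3781, 6132 and 4241 (log2 fold change 2.26, SE 0.39, adjusted p = 0.00263). In both genes the lowest P2 library was well above the highest P3 library. Gins2, part of the replicative helicase, was the G1/S gene higher in P3, with 664.1, 1140 and 406.9 against 1429, 2169 and 2685 (log2 fold change -1.58, SE 0.42, adjusted p = 0.0147), a call lost without P2 replicate 3 or P3 replicate 3 (adjusted p = 0.051 and 0.0652). Rrm1, a ribonucleotide reductase subunit, had 7285, 9481 and 4645 in P2 and 6226, 10754 and 12670 in P3 and overlapped (log2 fold change -0.47, SE 0.42, adjusted p = 0.399), although it was called at the same total (log2 fold change -1.57, adjusted p = 0.00111).

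Replication-dependent histone genes, whose mRNAs normally lack a poly(A) tail, were higher in P2 almost throughout. Of 63 tested of 68 genes, 54 were called higher in P2 and 0 in P3, and the libraries of 61 did not overlap (29.7% of all genes tested lay higher in P2 without overlap). The median log2 fold change was 2.47, and 19 were called with a median of 1.37 at the same total. Hist3h2ba had the largest change, at 1387, 1757 and 709.3 in P2 and 55.7, 185.6 and 95.2 in P3 (log2 fold change 3.58, SE 0.53, adjusted p = 0.00149). The linker histone Hist1h1c had 3264, 6244 and 1962 against 622.1, 806.4 and 965.3 (log2 fold change 2.12, SE 0.42, adjusted p = 0.00431). Hist1h2ap, the most abundant member, had 92238, 128734 and 59314 against 19007, 37347 and 39593 without overlap, but was not called (log2 fold change 1.55, SE 0.65, adjusted p = 0.0813). Many of these genes are close copies, so the split of reads among them is uncertain, and the library kit primed from poly(A).

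Among 18 cell cycle inhibitors, D cyclins and E2F factors, 17 were tested, 6 were higher in P2 and 3 higher in P3, against 20.7% and 11.3% of all genes. Their median of 0.29, near the 0.20 of all genes, turned to -0.82 at the same total, where 4 and 7 were called. Cdkn2d, an inhibitor of Cdk4 and Cdk6, had 2109, 2528 and 1129 in P2 and 130.9, 129.7 and 78 in P3 (log2 fold change 4.04, SE 0.43, adjusted p = 0.000511). Its target Cdk4 had 844.5, 872.7 and 359 in P2 and 4486, 9973 and 9477 in P3 (log2 fold change -3.55, SE 0.44, adjusted p = 0.00074). The inhibitor and the kinase thus lay in opposite order in all 6 libraries. E2f2, a factor with a known role in late erythroid cells, had 9143, 16716 and 8895 against 977, 1437 and 1558 (log2 fold change 3.09, SE 0.37, adjusted p = 0.000606), and the inhibitors Cdkn1b and Cdkn2c rose by 2.67 (SE 0.45) and 1.85 (SE 0.34) on the log2 scale. Cdkn1c, an inhibitor found in quiescent stromal and stem cells, had 0, 0 and 3.2 in P2 and 415.5, 72.1 and 91.9 in P3. The inhibitor Cdkn1a was also called higher in P3, at 232, 268.3 and 108.1 against 1769, 338.3 and 450.8 (log2 fold change -1.77, SE 0.62, adjusted p = 0.0445).

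The promoters of genes from these lists are shown for the motifs of periodic transcription. Capitals mark CCAAT, the motif of NF-Y (ATTGG on the other strand), and TTTGAA, the cell cycle homology region CHR (TTCAAA on the other strand). In Rrm1 they mark CCAAT and the E2F motif TTCCCGC, which was searched with TTGGCGC on both strands. Mki67 lies at chr7:135716380-135716629 on the minus strand, Ube2c, a ubiquitin-conjugating enzyme of mitotic exit, at chr2:164769679-164769928 on the plus strand, Hist3h2ba at chr11:58948661-58948910 on the plus strand and Rrm1 at chr7:102441445-102441694 on the plus strand, all 250 bases of RefSeq on GRCm38.p6.
Mki67: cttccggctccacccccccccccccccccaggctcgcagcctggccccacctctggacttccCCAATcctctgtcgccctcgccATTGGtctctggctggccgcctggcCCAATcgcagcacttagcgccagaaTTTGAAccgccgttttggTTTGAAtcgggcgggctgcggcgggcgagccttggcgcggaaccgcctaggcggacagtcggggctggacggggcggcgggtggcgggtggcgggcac
Ube2c: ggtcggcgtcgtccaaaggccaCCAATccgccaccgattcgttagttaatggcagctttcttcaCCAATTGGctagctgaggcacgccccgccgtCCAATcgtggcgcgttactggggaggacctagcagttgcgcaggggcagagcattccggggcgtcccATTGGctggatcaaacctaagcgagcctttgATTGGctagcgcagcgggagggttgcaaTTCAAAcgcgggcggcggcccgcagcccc
Hist3h2ba: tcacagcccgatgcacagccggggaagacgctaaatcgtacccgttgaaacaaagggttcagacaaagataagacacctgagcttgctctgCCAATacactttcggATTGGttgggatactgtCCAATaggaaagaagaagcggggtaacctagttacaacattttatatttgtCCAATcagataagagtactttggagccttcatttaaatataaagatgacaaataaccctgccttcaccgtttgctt
Rrm1: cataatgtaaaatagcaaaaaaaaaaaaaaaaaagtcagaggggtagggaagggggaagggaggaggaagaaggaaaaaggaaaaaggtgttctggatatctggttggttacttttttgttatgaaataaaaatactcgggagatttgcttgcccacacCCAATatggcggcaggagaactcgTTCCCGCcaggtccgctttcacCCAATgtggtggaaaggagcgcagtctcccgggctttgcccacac
Mki67 held 3 NF-Y and 2 CHR motifs, Ube2c held 6 NF-Y motifs, of which 2 overlap as CCAATTGG, and 1 CHR motif, Hist3h2ba held 4 NF-Y motifs, and Rrm1, which was not called, held 2 NF-Y motifs and 1 E2F motif. CCAAT stood in 37 of 48 matched G2/M promoters (77.1%), 48 of 59 histone promoters (81.4%) and 22 of 31 G1/S promoters (71.0%), against 34.5% of all promoters, but also in 5 of 7 globin promoters (71.4%). TTTGAA stood in 19 of the 48 G2/M promoters (39.6%), 24 of the 59 histone promoters (40.7%) and 5 of the 31 G1/S promoters (16.1%), against 16.3% of all. The E2F motif, whose reverse complement GCGCCAA can share letters with CCAAT, stood in 14 of the 31 G1/S promoters (45.2%) and 5 of the 48 G2/M promoters (10.4%), against 5.71% of all.

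The protein synthesis machinery was lower in P2. Of 82 tested of 88 cytosolic ribosomal protein genes, 56 were higher in P3 and 1 higher in P2, against 11.3% and 20.7% of all genes. The median log2 fold change was -1.67, while 80 were higher in P3 at the same total and 30 without P2 replicate 3. Rps2, a protein of the small subunit, had 4091, 5306 and 2819 in P2 and 9343, 17724 and 18696 in P3 (log2 fold change -1.89, SE 0.41, adjusted p = 0.00649). The member higher in P2 was Rpl3l, the copy of Rpl3 used in muscle, at 55.2, 27.6 and 30 against 0, 4.19 and 2.98 (adjusted p = 0.0138, and 0.0531 without P3 replicate 1). Ribosomal protein genes have many processed pseudogenes, so their reads are uncertain. Of 19 ribosome biogenesis genes, 13 were higher in P3 and 0 in P2 (median -2.18), and between 10 and 16 were higher in P3 under the other scalings. Npm1, a nucleolar chaperone, had 1360, 729.2 and 502.9 in P2 and 2784, 8010 and 6318 in P3 (log2 fold change -2.71, SE 0.47, adjusted p = 0.00259). Myc, the factor that drives these genes, had 66.3, 191.6 and 116.2 in P2 and 709.5, 888.2 and 978.7 in P3 (log2 fold change -2.89, SE 0.47, adjusted p = 0.00216). Every P3 library was above every P2 library for both genes.

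Of 12 heat shock and chaperone genes, 6 were higher in P3 and 0 in P2 (median -2.69), against 11.3% of all genes higher in P3. At the same total 10 were higher in P3, where 4600 of all 15368 genes were. They included the mitochondrial chaperonin pair Hspd1, at 598.3, 394.3 and 460 against 2014, 6365 and 4738 (log2 fold change -3.04, SE 0.43, adjusted p = 0.00121), and Hspe1 (log2 fold change -3.49, SE 0.49, adjusted p = 0.00121). Hspa8, the constitutive Hsc70, had 4429, 3949 and 2038 against 11537, 19549 and 18315 (log2 fold change -2.29, SE 0.41, adjusted p = 0.00292). Of 78 tested of 87 respiratory chain genes, 10 were higher in P3 and 1 in P2 with a median of -0.80, in all 14.1% of those tested against 31.9% of all genes. The number higher in P3 was 58 at the same total, 20 without P2 replicate 2, 17 without P3 replicate 1, 6 without P2 replicate 3 and 5 without P3 replicate 2.

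**Figure D2:**
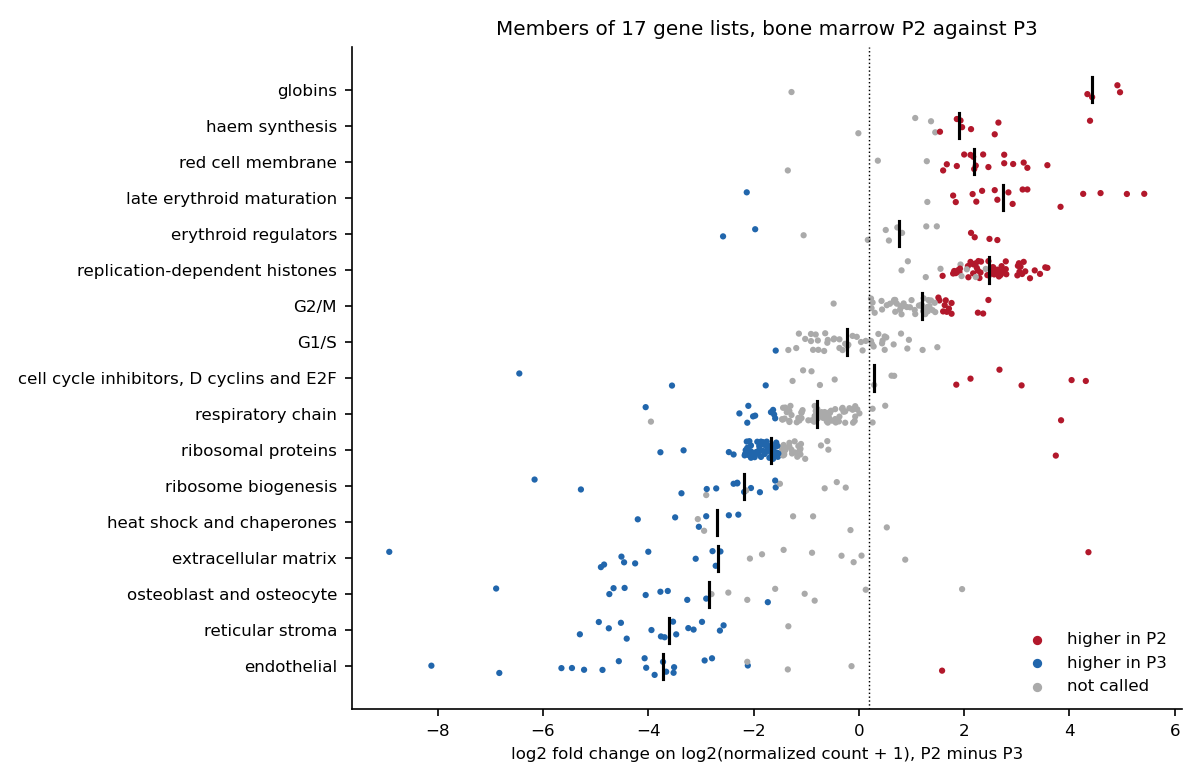
Each point is 1 tested gene of the list named on the left, at its log2 fold change (P2 minus P3) on the log2(normalized count + 1) scale. Red points were called higher in P2, blue points higher in P3 and grey points were not called, black ticks are list medians and the dotted line is the median of all genes tested, 0.20. Medians run from 4.43 for globins to -3.72 for endothelial genes.

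The stromal genes of marrow were higher in P3. Of 16 reticular stroma genes, all tested, 15 were higher in P3 and 0 in P2 (11.3% and 20.7% of all genes), with a median log2 fold change of -3.61. The same number was called under each of the 4 other scalings, and 13 without P3 replicate 1. Cxcl12, the chemokine that holds blood stem cells in marrow, had 936.1, 2368 and 626.5 in P2 and 101060, 27731 and 30573 in P3 (log2 fold change -5.30, SE 0.59, adjusted p = 0.000511). Igfbp5, an IGF-binding protein, had 410.6, 449.6 and 244.3 against 19938, 5487 and 5008 (log2 fold change -4.52, SE 0.51, adjusted p = 0.000511). P3 replicate 1 was the highest for both, and the other P3 libraries also lay well above P2. Lepr, the leptin receptor that marks these cells, had 487.9, 346 and 398.8 in P2 and 6112, 1651 and 1634 in P3 (log2 fold change -2.64, SE 0.49, adjusted p = 0.00314). Adipoq (adiponectin), Kitl (stem cell factor) and Pdgfrb, a receptor for platelet-derived growth factor, had log2 fold changes of -4.94 (SE 0.65), -3.53 (SE 0.64) and -3.94 (SE 0.61). Ebf3, a factor that keeps the identity of these cells, was the member not called, at 97, 50.8 and 87.9 against 778.6, 157.4 and 57.9.

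Among 18 tested of 19 osteoblast and osteocyte genes, 10 were higher in P3 and 0 in P2, against 11.3% and 20.7% of all genes. Their median was -2.85, and 5 were called without P3 replicate 3 and 13 at the same total. Sparc, the matrix protein osteonectin, had 610.9, 448.6 and 541.7 in P2 and 15655, 11292 and 16248 in P3 (log2 fold change -4.74, SE 0.31, adjusted p = 2.22e-05). Ibsp, bone sialoprotein, had 1188, 759.8 and 211.1 against 25776, 10926 and 10949 (log2 fold change -4.66, SE 0.59, adjusted p = 0.000781). Both were above every P2 library in all 3 P3 libraries. Col1a2, a chain of type I collagen, had 3963, 1254 and 1799 against 24064, 44442 and 86655 (log2 fold change -4.45, SE 0.55, adjusted p = 0.000752), lowest in the P3 library with the most Cxcl12. Spp1 (osteopontin) did not follow and was high in 1 P2 library, with 15403, 221 and 269.1 in P2 and 20071, 1282 and 12064 in P3 and overlap (log2 fold change -2.80, SE 1.43, adjusted p = 0.142). It was called without P2 replicate 1 (log2 fold change -4.79, adjusted p = 0.00863). Of 20 other extracellular matrix genes, 11 were higher in P3 and 1 in P2 (median -2.68), and 14 and 1 at the same total. Col6a1, a chain of type VI collagen, had 202, 174.2 and 148.3 against 9709, 2489 and 2317 (log2 fold change -4.46, SE 0.51, adjusted p = 0.000537), and Col14a1 was the member higher in P2, at 57, 32.3 and 221.5 against 0, 3.28 and 10.6 (adjusted p = 0.0155, and 0.0548 and 0.0516 without P2 replicate 3 or P3 replicate 1).

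Endothelial genes were higher in P3, whose gate required CD105, a protein that endothelium also carries. Of 21 tested of 22 genes, 17 were higher in P3 and 1 in P2, against 11.3% and 20.7% of all genes. The median log2 fold change was -3.72, and 16 to 18 were higher in P3 under the other scalings. Plvap, which forms the diaphragms of sinusoidal pores, had 38.9, 33.5 and 19.2 in P2 and 5626, 773.6 and 798.4 in P3 (log2 fold change -5.65, SE 0.74, adjusted p = 0.000909). Stab2, a scavenger receptor of sinusoids, had 136.2, 16.9 and 165.1 against 3408, 600.4 and 2632 (log2 fold change -4.56, SE 0.85, adjusted p = 0.00335). P3 replicate 2 was the lowest of its group for both and still above P2. Emcn, a sialomucin, and the VEGF receptors Flt4 and Kdr had log2 fold changes of -5.45 (SE 0.72), -5.22 (SE 0.88) and -3.52 (SE 0.74). Pecam1, shared by endothelium, platelets and leukocytes, had 704, 697.1 and 793.4 against 985.2, 655.1 and 814.6, and the groups overlapped (log2 fold change -0.14, SE 0.32, adjusted p = 0.746). Vwf, of endothelium and megakaryocytes, was the member higher in P2, at 1796, 1811 and 1219 against 451, 667 and 491.1 (log2 fold change 1.58, SE 0.33, adjusted p = 0.00569), close to the threshold on size. Its call was lost under 3 of the 4 other scalings and without P2 replicate 1, P2 replicate 2 or P3 replicate 1.

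**Figure D3:**
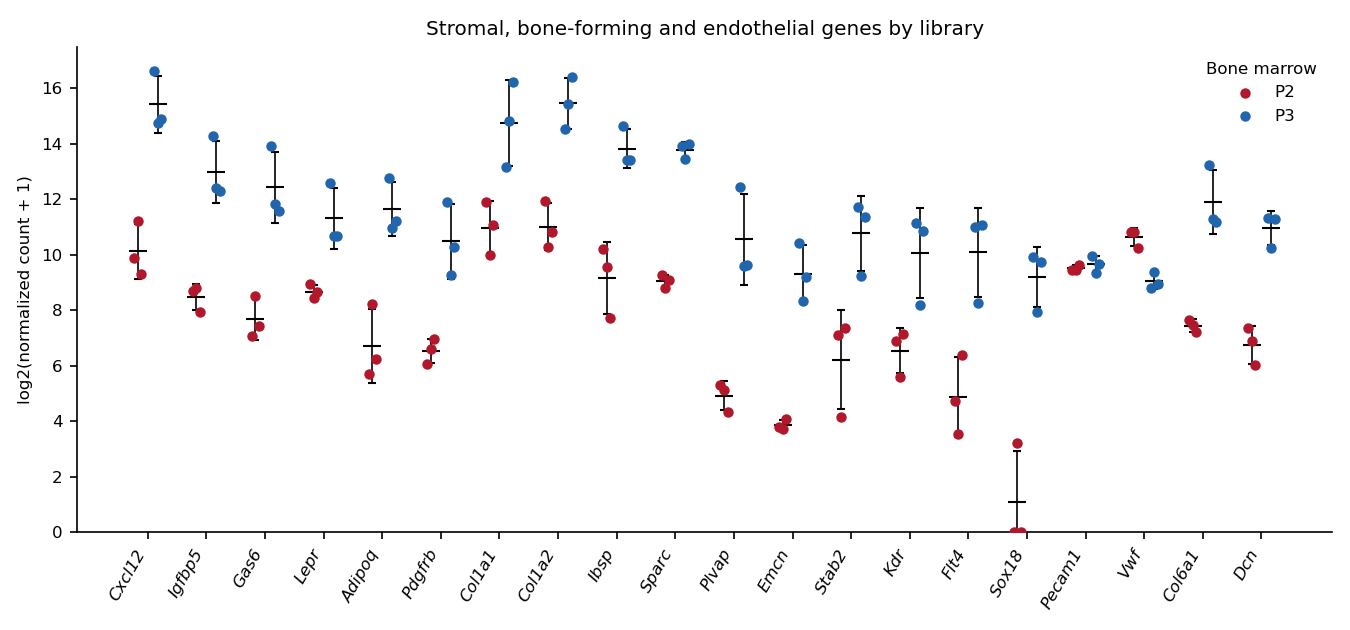
Each point is 1 library (red, P2; blue, P3) at log2(normalized count + 1), and the bars are the mean ± SD of the 3 libraries. Reticular, bone-forming, endothelial and matrix genes lie higher in all P3 libraries, whereas Pecam1 overlaps and Vwf lies higher in P2.

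Leukocyte genes were present in both groups although CD45+ cells had been gated out, and they differed widely between the libraries of each group. Of 13 secondary and tertiary granule genes, 0 were called in limma in either direction (31.9% of all genes) and 3 passed an unadjusted p of 0.05. Only 1 had libraries that did not overlap, against 50.5% of all genes, and 10 were called higher in P2 without P2 replicate 1. Camp, the cathelicidin of neutrophil granules, had 81.9, 15895 and 15528 in P2 and 1827, 1745 and 486.9 in P3 (log2 fold change 1.24, adjusted p = 0.557, and 3.76 with adjusted p = 0.00465 without P2 replicate 1). Mpo, the myeloperoxidase of primary granules, had 18312, 46237 and 3709 in P2 and 6512, 16569 and 2.03 in P3 (log2 fold change 4.41, SE 2.45, adjusted p = 0.176, and 6.71 with adjusted p = 0.0498 without P3 replicate 2). P2 replicate 1 was the lowest library for Camp and P3 replicate 3 for Mpo, and the groups overlapped for both. Of 8 primary granule genes 1 was higher in P2, Ms4a3, at 1655, 5204 and 853 against 205.4, 799.9 and 15.1 (log2 fold change 3.81, SE 1.14, adjusted p = 0.0237), and 6 were without P3 replicate 2 and none without P2 replicate 1, P2 replicate 2 or P3 replicate 3. Of 10 pan-leukocyte genes 2 were higher in P2, 0 at the same total, 6 without P2 replicate 1 and 0 without P2 replicate 2 or P3 replicate 3. Over all genes 20.7% were called higher in P2, and neither the primary granule nor the pan-leukocyte count exceeded that share.

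Of 13 tested of 15 B lineage genes, 2 were higher in P2 and 1 in P3 (20.7% and 11.3% of all genes), and 1 in each at the same total. Ms4a1, which encodes CD20, had 150.5, 50.6 and 425.2 in P2 and 4.86, 5.81 and 1.04 in P3 (log2 fold change 5.11, SE 1.06, adjusted p = 0.00515), and Ebf1, also expressed by marrow stroma, was the member higher in P3 (log2 fold change -2.45, SE 0.60, adjusted p = 0.0108). Of 7 tested of 13 T and NK genes 5 were higher in P2 (20.7% of all genes tested), namely Cd3g, Cd4, Cd8a, Klrb1c and Nkg7. The count was 1 at the same total, 1 without P2 replicate 1 or P3 replicate 3 and 2 without P3 replicate 1. Cd3g and Cd8a were also not called without P2 replicate 3 (adjusted p = 0.128 and 0.129), nor Cd8a without P3 replicate 2 (0.0932). Ms4a1, Cd3g, Cd4 and Klrb1c were below 10 in every P3 library. They passed the filter only through P2, which largely set their direction. Among all genes with a mean below 50, 1398 of 3508 tested were called higher in P2. Cd3d had 157.9, 77.9 and 232.3 in P2 and 36.2, 62.8 and 22.4 in P3 and was not called (adjusted p = 0.0737, and 0.0423 without P2 replicate 2). Cd3e, Trac and Gzma were listed at 0 in all 6 libraries. Nkg7, a granule protein of NK and other cytotoxic cells, had 938.6, 2662 and 787.2 against 82.4, 478 and 15.9 (log2 fold change 3.84, SE 0.97, adjusted p = 0.0121, and 0.0579 without P2 replicate 2). The list summed to 1652 to 3008 in P2 and to 95.2 to 612.9 in P3. Of 13 megakaryocyte and platelet genes 0 were higher in P2 and 1 higher in P3, Selp (log2 fold change -2.09, SE 0.5, adjusted p = 0.00985), and 5 were higher in P2 without P2 replicate 3, where Pf4 was 326.6 against 2587 and 2967 in the other P2 libraries. Of 14 tested of 16 monocyte and macrophage genes 2 were higher in P2 and 1 in P3 (20.7% and 11.3% of all genes), and of 5 tested of 9 eosinophil, basophil and mast genes 2 were higher in P2, both lists with 0 higher in P2 under some scalings and left-out libraries. The part of these cells in the differences of other genes was not tested.

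**Figure D4:**
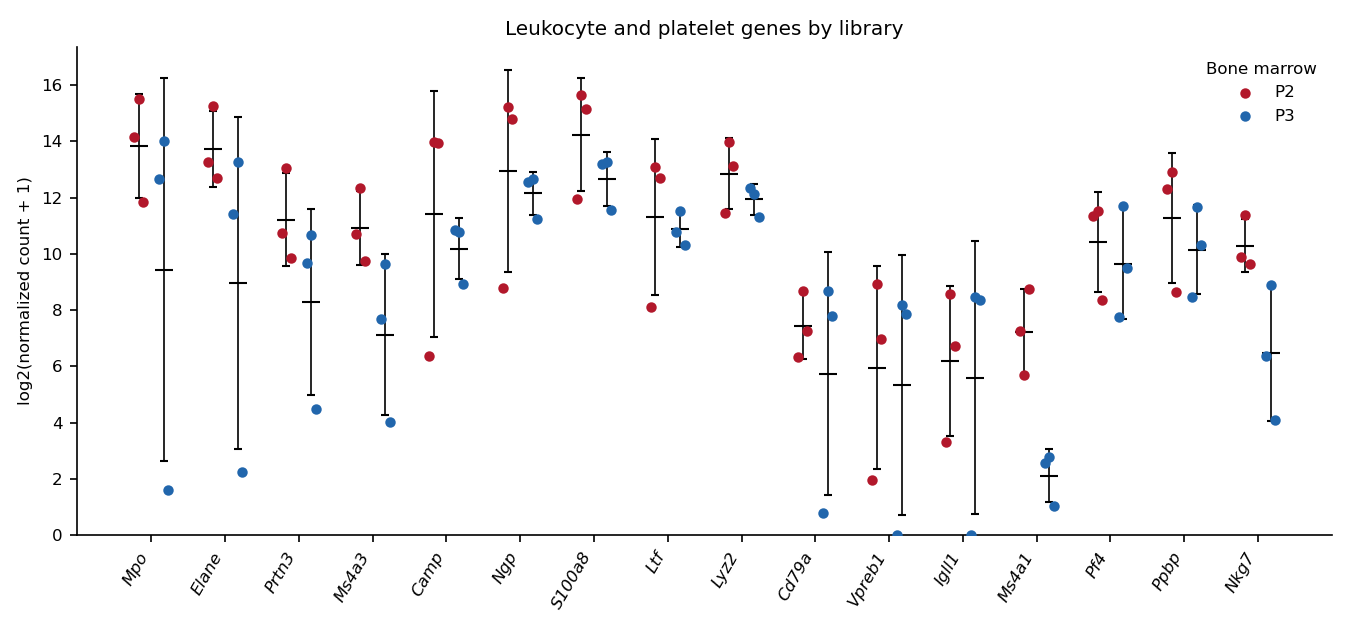
Each point is 1 library (red, P2; blue, P3) at log2(normalized count + 1), and the bars are the mean ± SD of the 3 libraries. Mpo falls to 2.03 normalized counts in P3 replicate 3 and Camp to 81.9 in P2 replicate 1, and most genes overlap between the groups.

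The largest changes outside the lists were mostly from or to values near 0. Among the 10 genes with the largest change higher in P2, Apol10a had 351.7, 482 and 456.2 against 0, 0 and 3.76, and AW551984, Slc13a3, Tpgs1 and Myrip were listed at 0 in all P3 libraries. Among the 10 with the largest change higher in P3, Sfrp4, a secreted Wnt antagonist, had 0, 19.5 and 0 in P2 and 7695, 2979 and 1937 in P3, and Ctsl, a lysosomal protease, had 0, 86.4 and 0 against 7185, 1292 and 3226. Aplnr, the apelin receptor of endothelium, was listed at 0 in all P2 libraries and at 1090, 322.3 and 816.6 in P3. A listing at 0 need not mean no transcript, since Ints1, a subunit of the Integrator complex that cells use in general, was also listed at 0 in all P2 libraries and at 308.7, 461.3 and 561 in P3. Of 18 interferon response genes 4 were higher in P2 and 2 higher in P3, near the shares of all genes (20.7% and 11.3%). Their median of 0.23 (0.20 over all genes) turned to -0.87 at the same total, with 2 and 3 called. The list included a pair with large changes. Rsad2 (viperin), an antiviral enzyme, had 13569, 16249 and 12900 in P2 and 366.3, 322.8 and 316.1 in P3 (log2 fold change 5.40, SE 0.29, adjusted p = 1.58e-05), and Isg15 had 3674, 5418 and 3160 against 466.4, 230.1 and 198.7 (log2 fold change 3.84, SE 0.40, adjusted p = 0.000439). These 2 genes rose together while Bst2 and Ifitm3, of the same list, were higher in P3, with log2 fold changes of -3.28 (SE 0.69) and -1.62 (SE 0.44). Ifitm3 was not called without P2 replicate 1 (adjusted p = 0.0707) or P3 replicate 1 (log2 fold change -1.11).

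The same gates were applied to periosteum and muscle, so the marrow change was set against theirs in a test of the difference, (marrow P2 minus P3) minus (tissue P2 minus P3), over 12 libraries each. On its own, the change from P3 to P2 gave 1326 DEGs in periosteum (7.77%), 646 higher in P2 (3.78%) and 680 higher in P3 (3.98%), and 3853 in muscle (22.9%), 1813 higher in P2 (10.8%) and 2040 higher in P3 (12.1%). Periosteum differed from marrow for 229 of 17074 genes (1.34%), 190 with a positive (1.11%) and 39 with a negative difference (0.228%). This count was not stable, being 27, 7, 3, 2 and 3 without marrow P2 replicate 1, P3 replicate 1, P2 replicate 3, P3 replicate 2 and P3 replicate 3, 594 and 134 without periosteum P2 replicate 1 and 3, and 16, 134 and 49 without periosteum P3 replicate 1, 2 and 3. Muscle differed from marrow for 6019 of 16829 genes (35.8%), 3644 positive (21.7%) and 2375 negative (14.1%). Globins had a median log2 fold change of 4.43 in marrow, 4.63 in periosteum and 2.73 in muscle, and late erythroid genes 2.73, 3.77 and 0.91. Histones had medians of 2.47, 3.43 and 0.55 and G2/M genes 1.19, 2.44 and 0.35, with 0 of 64 histones (8 at an unadjusted p of 0.05) and 1 G2/M gene called different from periosteum in limma. The lower ribosomal protein genes of marrow P2 had no counterpart in muscle, where the median was 0.88 against -1.67 in marrow, and 77 of 83 differences were called negative. Periosteum lay between, at -0.48, with 0 of 83 differences called in limma and 34 at an unadjusted p of 0.05. Respiratory chain genes had medians of -0.80 in marrow and 2.67 in muscle, with 76 of 82 called negative, beside skeletal muscle genes that had a median of 9.95 in muscle. Endothelial and reticular stroma genes were lower in P2 of every tissue by their medians, -3.72, -6.22 and -4.50 for endothelium and -3.61, -3.67 and -2.31 for reticular stroma, in marrow, periosteum and muscle.

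**Figure D5:**
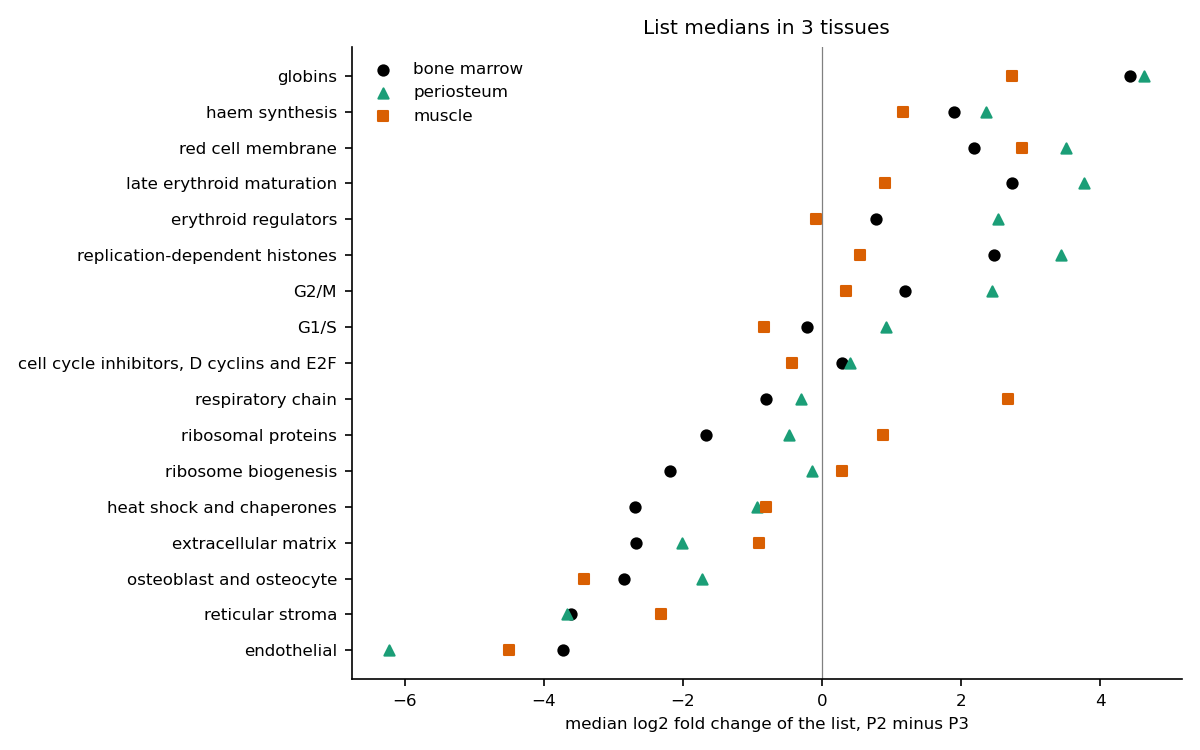
Symbols give the median log2 fold change (P2 minus P3) of each list in bone marrow (black circles), periosteum (green triangles) and muscle (orange squares), each over the genes tested there. Erythroid lists lie right of 0 in marrow and periosteum and endothelial lists left of 0 in all tissues, while ribosomal protein genes lie at -1.67 in marrow and 0.88 in muscle.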

How the data were processed

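RNA of sorted cells was amplified with the SMART-Seq v4 kit, which primes from poly(A), and made into Nextera XT libraries. The authors used FastQC, Trim Galore, STAR and DESeq2. The genome build, annotation and counting tool are not given in the sources used here. The deposited table holds 1 signal value per gene and library, normalized counts of 30154 entries in 27 libraries, which the authors had normalized before deposit. Low values were whole multiples of a common step for at most 31.1% of genes (tolerance 0.05 of a step), so reads could not be recovered, no count test was used, depth is unknown and no counting interval is given. The table was used as deposited.

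Of the entries, 15368 with at least 10 in at least 3 of the 6 libraries were tested on log2(normalized count + 1) with limma 3.58.1 (lmFit and eBayes with trend, R 4.3.3) and Benjamini-Hochberg adjustment, a gene being called at adjusted p below 0.05 and absolute log2 fold change above 1.5. A fold change on this scale understates that of low genes. A gene below 10 in all libraries of 1 group passed the filter only through the other group, which largely set its direction. Differences between tissues were limma contrasts over 12 libraries, and the globin share was compared by an exact permutation test of its mean. The 44 gene lists (882 members, 7 of them matched under another symbol) and the comparison itself were chosen with earlier results of these data known, so lists are described by counts and medians and not tested. Genes were named by rule (the sort markers, the 10 largest non-overlapping changes in each direction with a mean of at least 100 in the higher group, up to 3 of the most abundant and the largest called members of each list, the 3 largest tissue differences in each direction, and the globin, haem synthesis, regulator and progenitor lists), but not all of these are printed. Which to print, and the genes outside the rule, were chosen after the values were seen. Promoters are RefSeq sequences of GRCm38.p6, matched by symbol or synonym. In data simulated for bone marrow P2 against P3 over 15368 genes, with 200 genes changed at each size, 6, 106 and 175 were called at log2 fold changes of 2, 3 and 5, beside 0, 3 and 13 others. In the real comparison 4903 genes were called. The adjustment depends on how many genes change, so the simulated recovery does not give that of the real comparison. Alternatives were other pseudocounts, filters, scalings, fits and thresholds, a replicate block and leaving out each library.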

Additional observations from a re-analysis of the deposited data

Results flagged for a closer look

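The change from P3 to P2 differed between bone marrow and the other tissues, by a limma test of the difference of log2 fold changes over 12 libraries, for 229 genes against periosteum and 6019 against muscle. Against periosteum, the positive differences of largest size are given first. Ccl21a, a chemokine of lymphatic vessels, differed by 14.77 (SE 1.7, adjusted p = 0.00665), being 5375, 940.3 and 3611 normalized counts in periosteum P3 and at most 43.3 in each other library of these groups. Dio2, which activates thyroid hormone, differed by 12.64 (SE 2.06, adjusted p = 0.028), and its 3 marrow P2 libraries had 99.7, 2.81 and 119.5. Nos2, the inducible nitric oxide synthase, differed by 11.81 (SE 1.72, adjusted p = 0.0239) and was listed at 0 in all marrow P3 and all periosteum P2 libraries.

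Pth1r, the parathyroid hormone receptor of bone-forming cells, had opposite orders in the tissues, with 58.2, 0 and 0 in marrow P2, 973.1, 344.3 and 291.3 in marrow P3, 1303, 2252 and 1097 in periosteum P2 and 0, 0 and 24.3 in periosteum P3 (difference -15.86, SE 2.42, adjusted p = 0.0268). Prss50 had the same orders, at 5.98, 0 and 16 against 147.8, 507.5 and 619.5 in marrow and 445.8, 2269 and 464.4 against 0, 0 and 12.7 in periosteum (difference -14.54, SE 2.07, adjusted p = 0.0239). Stk26 differed by -8.63 (SE 1.88, adjusted p = 0.0488), with overlapping groups in marrow.

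Against muscle, Acsbg1, Npy1r and Eps8l2 differed by 14.22 (SE 1.49), 14.07 (SE 1.57) and 14.01 (SE 1.15), each higher in P2 of marrow and in P3 of muscle without overlap in either tissue. Npy1r, a neuropeptide Y receptor, was listed at 0 in all marrow P3 libraries and had 54.1, 64.4 and 414.3 in marrow P2. Cox6a2, Tnni2 and Eno3, which skeletal muscle fibres express, differed by -11.78 (SE 1.24), -11.32 (SE 1.09) and -10.63 (SE 0.91). Tnni2 had 164669, 203575 and 200838 in muscle P2 and at most 4.26 in each marrow library.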

How the results depend on the processing

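The 3174 genes higher in P2 and 1729 higher in P3 became 1728 higher in P2 with a mean of at least 50 required, 3118 in all and 982 higher in P3 in a fit over 27 libraries, 1463 and 4600 at the same total per library, 2099 higher in P2 under quantile normalization, and 2851 in all with 690 higher in P3 at an absolute log2 fold change above 3. A minimum of 50 in at least 3 libraries, chosen after seeing the data, gave 3168 in all and 1611 higher in P2. With 1 library left out the total ran from 3199 to 5269 and the number higher in P3 from 992 to 1887. The share higher in P2, 64.7%, was 24.1% at the same total, 52.9% at the same total without globins and 55.2% under quantile normalization. The 229 differences from periosteum (190 positive, 39 negative) became 59 (41 and 18) with pseudocount 5, 5 (2 and 3) with a replicate block and 97 (38 and 59) under quantile normalization, and ran from 2 to 594 (0 to 521 positive, 2 to 73 negative) with 1 library left out. The positive differences from muscle became 1861 under quantile normalization. With a replicate block 3235 and 1888 genes were called. The block cost the calls of Hba-a1, Hba-a2 and Hbb-bs among the genes named and added Mpo, Spp1 and Ptprc. Over all genes same-numbered libraries did not deviate together (residual r 0.019, 0.129 and -0.059, against -0.162 to 0.155 for other pairs). The numbers were therefore not used as pairs, but these values cannot tell whether same-numbered libraries share an animal or a sort. The log2 fold change turned at the same total to -0.54 for Gata1, -0.59 for Klf1 and -0.34 for Pf4, and to -0.03 for Klf1 under quantile normalization. With 1 library left out it ran from -0.32 to 0.18 for Tmem14c, -0.03 to 3.76 for Camp, -0.19 to 1.78 for Pf4 and -0.39 to 0.01 for Ddx3y. Of 102 named genes that were called, none reversed under any setting, and 20 lost the call at the same total, Fech, Tal1, Nfe2, Sox6, Flt3, Cenpf, Mki67, Hist1h1c, Cdkn2c, Ube2c, Vwf, Ms4a3, Hk2, Btg2, Kdm5d, Cd3g, Cd4, Cd8a, Klrb1c and Tgfbr1. Leaving out a library leaves 2 in its group. The causes were not tested. Reads behind a value are unknown, so values near 0 cannot be given a counting error.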

Other observations

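Other lists showed few calls or calls in both directions. Over all genes tested 20.7% were called higher in P2 and 11.3% higher in P3. Of 20 glycolysis genes 2 were higher in P2 and 2 in P3 (median -0.81, and 0 and 9 at the same total), with Ldha, which reduces pyruvate to lactate, at 1623, 2178 and 1573 in P2 and 5380, 11285 and 11147 in P3 (log2 fold change -2.31, SE 0.38, adjusted p = 0.00216) and Hk2, a hexokinase, at 176.4, 354.4 and 389.8 against 71.5, 36.9 and 51.5 (log2 fold change 2.47, SE 0.62, adjusted p = 0.0114). Of 15 cholesterol synthesis genes 0 were called in limma and 1 passed an unadjusted p of 0.05, and at the same total per library 7 were higher in P3. Of 9 MHC class I genes 3 were higher in P3 (6 at the same total) and 0 in P2, among them H2-K1 at 948.6, 2117 and 707.3 against 13423, 5803 and 6906 (log2 fold change -2.85, SE 0.46, adjusted p = 0.00212), and of 6 tested of 7 MHC class II genes 1 was called in each direction. Of 15 tested of 17 immediate early genes 2 were higher in P2 and 4 in P3 (0 and 8 at the same total). Jun had 902.9, 510.6 and 154.4 against 14480, 2819 and 3387 (log2 fold change -3.64, SE 0.69, adjusted p = 0.00361), highest in P3 replicate 1, whereas Btg2, which restrains division, had 9601, 13998 and 6239 against 1961, 1460 and 2389 (log2 fold change 2.31, SE 0.38, adjusted p = 0.00222).

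Of 21 tested of 23 genes of TGF-beta and BMP signalling 5 were higher in P3 and 1, Tgfbr1, in P2 (8 and 0 at the same total), with the receptor Tgfbr3 at 191.5, 146.2 and 210.5 against 3596, 664.4 and 1297 (log2 fold change -3.01, SE 0.55, adjusted p = 0.00297), and of 14 tested of 16 Notch genes 3 were higher in P3 (7 at the same total) and 0 in P2, the 3 being the ligand Dll1, the target Hes1 and the modifier Lfng, while none of the 4 Notch receptors was called. With 1 library left out the calls of Tgfbr1 and of Hes1 were lost, for Tgfbr1 with any library but P2 replicate 2 (adjusted p = 0.0722 to 0.136) and for Hes1 with any but P3 replicate 2 (0.0755 to 0.19). Of 8 tested of 10 fibroblast genes 3 were higher in P3 (5 at the same total) and 0 in P2, with Dcn (decorin) at 164.2, 117 and 63.8 against 2564, 1218 and 2510 (log2 fold change -4.20, SE 0.46, adjusted p = 0.000511). The list was mixed in direction. Of its members not called, Pi16, Mfap5 and Dpp4 had log2 fold changes of 2.20, 2.57 and 1.39 (adjusted p = 0.0545, 0.0925 and 0.165). Fbln1 and Gsn, also not called, had -4.14 and -1.12. Calls in both directions, given as higher in P2 and higher in P3, were found for cartilage (1 and 2 of 14 tested), mural (1 and 1 of 11) and limb mesenchyme genes (1 and 1 of 11). The same held for adipocyte (2 and 1 of 6), osteoclast (3 and 1 of 6) and Schwann cell genes (2 and 1 of 6). The called share of the first 3 lists was below the 31.9% of all genes and that of the last 3, with few genes tested, above it. Of the adipocyte list, Fabp4 had 96, 28 and 36.1 in P2 and 5078, 702.3 and 2827 in P3 (log2 fold change -5.52, SE 0.71, adjusted p = 0.000832), while the fatty acid transporter Cd36, which red cell precursors also carry, had 4433, 11071 and 5510 against 837.7, 414.1 and 496 (log2 fold change 3.54, SE 0.41, adjusted p = 0.000563). Of 4 tested skeletal muscle genes 2 were higher in P2, where the list summed to 208.7 to 448.9 normalized counts against 69.3 to 82.4 in P3. Of 4 sex chromosome genes 1, Kdm5d, was higher in P2 (log2 fold change 2.07, SE 0.46, adjusted p = 0.00666), while Ddx3y was present at 545.1 to 999.9 in all 6 libraries.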
